A study of Mus musculus with 16 samples.

Results

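The Agtr2/Adh1-positive cells of the T9 cultures were the 292 cells, of 1111 T9 cells used and 4301 cells used in the whole series, in which the transcripts of Agtr2 and Adh1 added up to 2 or more UMIs (unique molecular identifiers, which mark each captured mRNA molecule so that its PCR copies are counted once). The 633 T9 cells with no UMI of either gene were the negative cells, and the 186 cells with 1 UMI were left out of the comparison. A cell was used when it had at least 200 detected genes and 3000 UMIs. All cells derived from mouse induced pluripotent stem cells (iPSCs) with the ScxGFP transgene, in which Scx regulatory sequence drives GFP. Per the methods of the study 1 clone was used, and it was kept on feeder cells in 2i LIF medium. Mesodermal cells were induced from them in medium with FBS, L-glutamate, and ITS (insulin, transferrin, and selenite), with CHIR99021 and cyclopamine per the methods of the study. Per those methods, the same basal medium with less FBS was used from the day before TGF-β2 was added. The cells were sorted before TGF-β2 (T0) or after 3 days (T3), 6 days (T6), or 9 days (T9) with human recombinant TGF-β2 at 10 ng/ml. All positive and negative cells of T9 had thus had the same treatment. Live cells were sorted singly into 384-well plates without a gate on GFP, with 3 plates at each time point, and the libraries were made by CEL-Seq2. The labels do not say whether the plates of a time point came from separate cultures, so p-values measure the spread between plates, which may be technical.

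Agtr2 encodes the type 2 angiotensin II receptor, a receptor of the renin-angiotensin system that is abundant in fetal mesenchyme and falls after birth. Adh1 encodes an alcohol dehydrogenase that oxidizes ethanol and also retinol, the step before retinaldehyde is made into retinoic acid. Tendons hold Scx- and Tnmd-expressing tenocytes inside the collagen fascicles, and fibroblasts in the sheaths and between the fascicles, where decorin (Dcn), osteoglycin (Ogn) and other small leucine-rich proteoglycans bind collagen fibrils.

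The UMIs of the cells used summed to between 1769947 and 4603258 per plate. At T9 the positive cells of a plate held between 761545 and 987707 UMIs and the negative cells between 1741130 and 1844662. Positive cells were somewhat deeper, with a median of 9460, 7990, and 7725.5 UMIs per cell in plates 1, 2, and 3 against 8785.5, 7243.5, and 7209 in negative cells. Plate 3 of T9 stood apart in its level of abundant matrix transcripts in either class, for example 21015 CPM of Col1a1 in its negative cells against 8790 and 5858 in plates 1 and 2 (CPM, a gene's share of all UMIs of the cells summed, times 1000000). The 2 classes were compared within plates, since both classes of a plate share its sort, pool, and library. The same 384 well barcodes were used in all 12 plates, so a cell is known by its plate and barcode together.

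Agtr2 and Adh1, which chose the cells, were found in part in the same cells. Of the 292 positive cells, 90 had Agtr2 but no Adh1, 104 had Adh1 but no Agtr2, and 98 had both. A cell with 1 UMI of each gene passed the rule, while a cell with 1 UMI of a single gene did not. The rule itself thus raised the share of positive cells with both genes. An Adh1 UMI was found in 35.3% of the 278 cells with Agtr2 and in 24.01% of the 833 cells without it. By plate these shares were 38.4% and 29.0% in plate 1, 41.1% and 21.6% in plate 2, and 25.0% and 21.5% in plate 3. They were neither tested nor adjusted for depth. Among the positive cells the median of the summed UMIs was 4 and the highest 63, and 82 cells had exactly 2. Agtr2 lies at chrX:21484544-21489164 and Adh1 at chr3:138260991-138290698, both on the plus strand of GRCm38, and both code for proteins.

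The positive share grew over the 4 time points, which describes the genes that set the rule and was not tested. It was 26.4%, 27.1%, and 25.3% of the cells in the 3 plates of T9 (exact 95% binomial intervals from 21.0% to 31.9% over the plates), 11.8%, 9.07%, and 14.2% at T6, 2.17%, 2.48%, and 3.12% at T3, and 1.14%, 0.552%, and 1.12% at T0. No plate of an earlier time point reached a plate of a later one. From T0 through T9 the mean level of Agtr2 over all cells was 0.862 ± 0.420, 1.61 ± 1.70, 22.3 ± 5.97, and 78.1 ± 13.6 CPM (SD, n = 3). That of Adh1 was 2.28 ± 2.13, 18.2 ± 3.401, 67.9 ± 13.7, and 151 ± 9.67 CPM. Thus Adh1 was above its T0 level in all 3 plates of T3, where Agtr2 overlapped with T0. At T0, where cells were the deepest, 0.563% ± 0.288 of the cells had an Agtr2 UMI and 1.41% ± 1.02 an Adh1 UMI. These shares were 25.0% ± 1.68 and 26.8% ± 4.58 at T9. Whether the UMIs at T0 were technical background or low expression was not tested. With every cell thinned to 3000 UMIs the mean positive share was 0.187%, 1.54%, 4.91%, and 14.2% in the same order of time points.

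**Figure D1:**
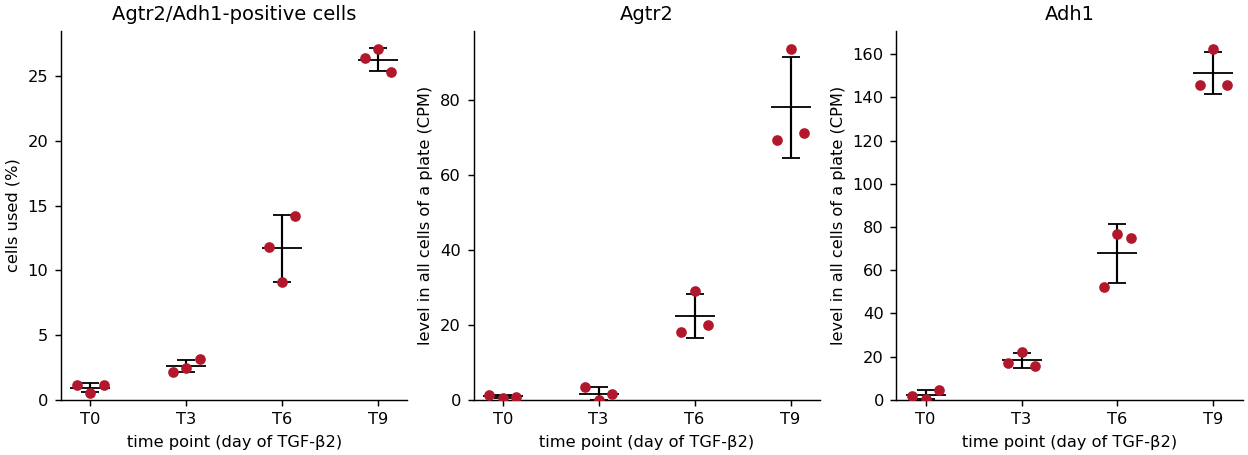
Share of Agtr2/Adh1-positive cells in percent of the cells used (left) and the levels of Agtr2 (middle) and Adh1 (right) in CPM over all cells of a plate, by time point. Points are plates, horizontal bars the mean and error bars the SD (n = 3), and the share rises from 0.936% at T0 to 26.3% at T9.

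Within the 3 plates of T9, positive cells had more transcripts of Gdf10, Ogn, Dcn, Lum, Col6a1, and Col6a2, and fewer of Scx, Tnmd, Kera, Fmod, Top2a, and Mki67, than negative cells. For each plate the UMIs of a gene were summed over the cells of a class, and the sums were compared with the quasi-likelihood test of edgeR with the plate as a block, leaving out Agtr2 and Adh1. Of 9463 genes tested, 138 (1.46%) were called at a Benjamini-Hochberg adjusted p under 0.05, of which 51 (0.539%) were higher and 87 (0.919%) lower in positive cells. These shares over all genes stand beside every count of called list members below. The median log2 fold change was 0.76 among the 51 and -1.25 among the 87, and it was 0.00 over all genes tested. Of the 138, 137 differed in the same direction in all 3 plates and the other, Actc1, had no UMI in plate 2, and in 91 of the 138 the 3 positive sums lay all above or all below the 3 negative ones, which was so in 6.39% of all genes tested. DESeq2 called 45 genes, all among the 138. The number of calls rested on plate 1: without it 0 genes passed with edgeR, while 661 had an unadjusted p under 0.05, and 137 of the 138 could be tested and kept their direction.

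Small leucine-rich proteoglycans went both ways. Dcn, which binds collagen fibrils and TGF-β, measured 3516, 3417, and 3581 CPM in the positive cells of plates 1, 2, and 3 and 2003, 2154, and 2525 CPM in the negative cells, a log2 fold change of 0.66 (SE 0.06, edgeR adjusted p = 6.45e-06). Ogn measured 936, 701, and 601 CPM against 398, 424, and 406 (log2 fold change 0.85, SE 0.10, edgeR adjusted p = 9.06e-05). Lum, a regulator of fibril diameter, measured 1016, 1080, and 859 CPM against 780, 813, and 537 (0.49, SE 0.08, edgeR adjusted p = 0.00165). In these 3 genes every positive sum was above every negative sum. Kera, the keratan sulfate proteoglycan keratocan, went the other way with 15.2, 25.6, and 10.5 CPM against 72.6, 57.4, and 57.2 (-1.86, SE 0.26, edgeR adjusted p = 0.000501). Fibromodulin (Fmod), abundant in tendon, measured 61.8, 37.8, and 97.2 CPM against 143, 97.6, and 210 (-1.21, SE 0.14, edgeR adjusted p = 8.42e-05). Aspn, or asporin, measured 214, 208, and 255 CPM against 317, 292, and 357 (-0.51, SE 0.10, edgeR adjusted p = 0.00789). Thus 3 of the 9 tested members of this family were higher, 3 lower, and 3 were not called, with a median log2 fold change of -0.09. Over all genes tested 0.539% were higher and 0.919% lower.

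Genes of the family that lie side by side differed in direction. Dcn (chr10:97479609-97518143), Lum (chr10:97565128-97572703), and Kera (chr10:97606879-97613692) are neighbours on the plus strand of GRCm38, of which the former pair was higher and Kera lower. Aspn (chr13:49544443-49567565) and Ogn (chr13:49608046-49624501), also on a plus strand, are separated by Omd, which had too few UMIs to be tested (2 in positive and 3 in negative cells), and again the one was lower and the other higher. Ogn and Aspn lie within the span of Cenpp, which is on the opposite strand, and the strand setting of the counting is not given in the sources used here. Cenpp itself measured between 2.63 and 24.5 CPM in the 6 sums, far below Ogn and Aspn.

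Among collagens, 4 of 17 tested genes were higher in positive cells, 3 were lower, and 10 were not called (median log2 fold change -0.08). Among all genes tested 0.539% were higher and 0.919% lower. Of the collagen VI chains, which form the microfibrils around cells, Col6a1 and Col6a2 were higher. Col6a3 measured 377, 176, and 524 CPM in positive and 357, 239, and 507 CPM in negative cells and was not called. Col6a1 measured 1940, 1428, and 3212 CPM in positive cells and 1080, 988, and 1860 CPM in negative cells (0.73, SE 0.07, edgeR adjusted p = 6.45e-06). Col6a2 measured 1787, 1044, and 2659 CPM against 1022, 799, and 1534 (0.67, SE 0.08, edgeR adjusted p = 7.85e-05). In each plate the positive sums of Col6a1 and Col6a2 were above the negative sums, but the 2 classes overlapped between plates. Col14a1, a collagen of the fibril surface, was higher by 0.67 (SE 0.14) and Col3a1, the fibrillar collagen III, by 0.24 (SE 0.05). The lower genes were Col12a1, which also binds the fibril surface (-0.74, SE 0.10), and the basement membrane chains Col4a1 (-0.86, SE 0.14) and Col4a2 (-0.65, SE 0.13). The chains of collagen I, the main collagen of tendon, were not called, with log2 fold changes of -0.10 (SE 0.04) for Col1a1 and 0.03 (SE 0.05) for Col1a2.

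Elastic fibre genes had 2 of 17 members called, elastin (Eln, 0.44, SE 0.08) and Fbln5, a fibulin needed to assemble elastin (0.53, SE 0.12), both higher, with a median of 0.13. Over all genes tested 0.539% were higher. Eln measured 1126, 771, and 2298 CPM in positive cells and 768, 669, and 1575 CPM in negative cells. Of 14 matricellular genes, which encode matrix proteins that signal to cells, Sparcl1 was higher and Postn and Tgfbi were lower. Sparcl1 measured 307, 240, and 402 CPM against 110, 203, and 138 (1.09, SE 0.18, edgeR adjusted p = 0.00239). Periostin (Postn) measured 1160, 806, and 1207 CPM against 1730, 1144, and 2160 (-0.64, SE 0.07, edgeR adjusted p = 3.38e-05). The 15 tested TGF-β response genes, which include Smad7, had no call in either direction and a median of -0.11.

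The 12 genes with the largest increase among those with at least 50 CPM in all 3 positive sums were Gdf10, Itga9, 2610528A11Rik, Ntrk2, Esr1, Tnfaip8l3, Sparcl1, Igfbp7, Osr1, Pgr, Ptprd, and Gstm1. Gdf10, a ligand of the TGF-β family, measured 148, 126, and 259 CPM in positive cells and 63.4, 49.97, and 106 CPM in negative cells (log2 fold change 1.28, SE 0.13, edgeR adjusted p = 1.48e-05). Ntrk2, the receptor of the neurotrophin BDNF, measured 85.0, 102, and 211 CPM against 52.0, 36.2, and 85.0 (1.18, SE 0.16, edgeR adjusted p = 0.000501). Integrin α9 (Itga9), a receptor for tenascin C and other matrix proteins, measured 59.7, 52.2, and 80.1 CPM against 21.1, 14.9, and 49.8 (1.26, SE 0.23, edgeR adjusted p = 0.00632). The positive sums of Gdf10, Ntrk2, and Itga9 were all above the negative ones, although by little in Ntrk2.

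The receptors of 2 sex steroids were among these genes. Estrogen receptor α (Esr1) measured 63.8, 112, and 232 CPM in positive cells and 41.7, 52.8, and 76.5 CPM in negative cells (1.16, SE 0.18, edgeR adjusted p = 0.00105). The progesterone receptor (Pgr), which is a target gene of Esr1, measured 178, 121, and 418 CPM against 56.4, 108, and 206 (0.95, SE 0.18, edgeR adjusted p = 0.00799). In either gene the classes overlapped between plates, since plate 3 was the highest in both classes. In Pgr the difference within plate 2 was small.

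The other leading genes were 2610528A11Rik, Tnfaip8l3, Igfbp7, Osr1, Ptprd, and Gstm1, with log2 fold changes between 0.89 and 1.19. Osr1, a transcription factor of connective tissue fibroblasts in the limb, measured 100, 86.7, and 180 CPM in positive cells and 47.2, 71.2, and 61.2 CPM in negative cells (1.00, SE 0.19, edgeR adjusted p = 0.0105), and it was the only call among the 14 tested mesenchymal transcription factors. Of 11 IGF genes, the binding proteins Igfbp7 (1.01, SE 0.17) and Igfbp6 (0.99, SE 0.21) were higher and the growth factor Igf2 was lower (-0.57, SE 0.05). Igf2 measured 5954, 4316, and 7577 CPM against 8845, 6624, and 10859, and it is 1 of the 3 imprinted growth genes that were lower of 12 tested, with H19 (-0.31, SE 0.07) and Mest (-0.85, SE 0.20). Of 6 Wnt antagonists and R-spondins tested, the Wnt antagonists Sfrp2 (0.64, SE 0.11) and Dkk2 (0.66, SE 0.13) were higher. Of 12 BMP and GDF genes, Gdf10 and Id1, a target of BMP signaling (0.38, SE 0.09), were higher and none was lower.

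**Figure D2:**
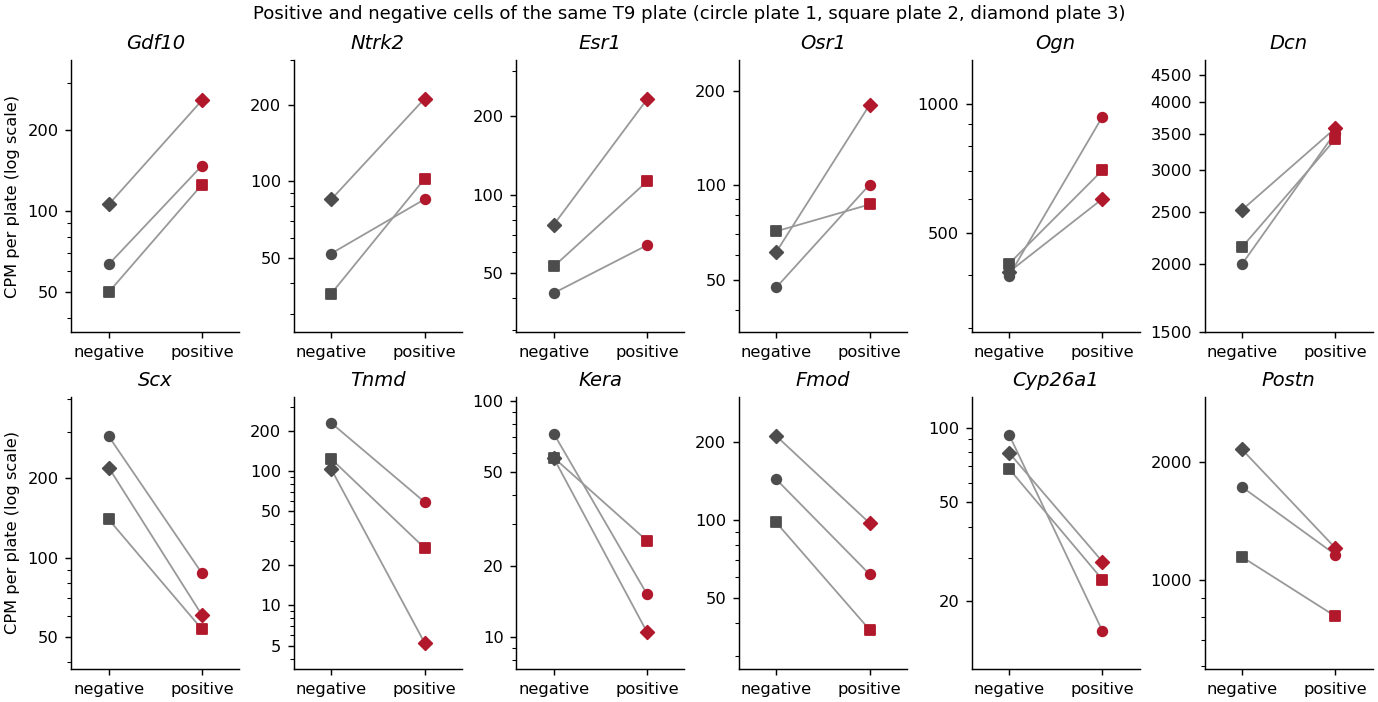
Levels of 12 genes in CPM (log scale) in the negative (grey) and positive (red) cells of each T9 plate, with a line joining the 2 classes of a plate. Gdf10, Ntrk2, Esr1, Osr1, Ogn, and Dcn rise and Scx, Tnmd, Kera, Fmod, Cyp26a1, and Postn fall from negative to positive cells in all 3 plates.

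Of 12 tested tenocyte markers, Scx, Tnmd, Kera, and Fmod were lower in positive cells, Htra3, a secreted serine protease, was higher (0.58, SE 0.14), and 7 were not called, with a median of -0.52. Among all genes tested 0.919% were lower and 0.539% higher. Scx, the transcription factor of the tendon lineage, measured 87.1, 53.4, and 60.4 CPM in the positive cells of plates 1, 2, and 3 and 289, 140, and 220 CPM in the negative cells (-1.67, SE 0.14, edgeR adjusted p = 1.94e-06). Tnmd, a membrane protein of mature tenocytes, measured 58.7, 26.7, and 5.25 CPM against 228, 123, and 103 (-2.35, SE 0.23, edgeR adjusted p = 6.45e-06). Neither gene overlapped between the classes. Scx (chr15:76457452-76459458, plus strand) overlaps Bop1, a gene of the minus strand that measured between 6.67 and 23.6 CPM in the 6 sums. Mkx, another transcription factor of tendon, measured 23.3, 20.01, and 18.4 CPM against 41.2, 35.0, and 32.3 but was not called (-0.81, SE 0.25, edgeR adjusted p = 0.168). Sox9, the transcription factor of cartilage progenitors, was lower with 39.5, 37.8, and 51.2 CPM against 87.3, 62.6, and 151 (-1.17, SE 0.18, edgeR adjusted p = 0.00162).

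The share of cells with a UMI was compared after every cell was thinned to 3000 UMIs. Scx was found in 12.1%, 9.90%, and 8.70% of the positive cells and in 34.7%, 23.9%, and 29.7% of the negative cells of plates 1, 2, and 3. Tnmd was found in 7.07%, 2.97%, and 1.09% of positive and 17.9%, 12.4%, and 9.13% of negative cells. Thus positive cells held Scx and Tnmd in a smaller share of cells in every plate, and the classes did not overlap. Sox9 was found in 9.62% ± 1.08 of positive and 16.3% ± 7.26 of negative cells, and Acta2, the smooth muscle actin, in 74.3% ± 5.26 and 79.0% ± 5.11 (SD, n = 3). Dcn was found in 95.9% ± 1.62 and 87.0% ± 2.17, and Ogn in 64.2% ± 9.44 and 48.5% ± 4.10. Within the plates each of these 6 shares differed in 1 direction, with an exact two-sided permutation p = 0.25 for each, which is the smallest that 3 pairs of plates allow. With all UMIs kept, Acta2 was found in 1.31 percentage points more of the positive cells instead, and Ogn and Dcn were above the negative cells in 2 of the 3 plates.

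Since Adh1 acts on retinol, retinoid genes were compared as a list. Of 19 tested, Cyp26a1 and Fabp5 were lower and 16 were not called, with a median of 0.01. Cyp26a1, the enzyme that breaks down retinoic acid, measured 15.2, 24.5, and 28.9 CPM in positive cells and 93.8, 68.3, and 79.3 CPM in negative cells (-1.83, SE 0.23, edgeR adjusted p = 0.000156). Its classes did not overlap. Aldh1a2, the enzyme that makes retinoic acid from retinaldehyde, measured 27.3, 25.6, and 95.9 CPM against 36.3, 20.1, and 62.3 and was not called (0.24, SE 0.23, edgeR adjusted p = 0.848). The retinoic acid receptor Rarb was not called either (0.25, SE 0.30). Of the other alcohol dehydrogenases in the list, Adh4 and Adh7 were at 0 UMIs in the positive cells and at 1 UMI each in the negative cells. Adh5 measured 153, 196, and 168 CPM in positive and 143, 149, and 134 CPM in negative cells and was not called.

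Of the other genes of the renin-angiotensin system, none of the 8 tested was called, and their median was 0.09. The type 1 receptors Agtr1a and Agtr1b had 2 and 1 UMIs in all positive cells and 3 and 4 UMIs in all negative cells, and Mas1, the receptor of angiotensin 1-7, had none. Mtus1, a protein that binds the type 2 receptor, measured 76.9, 62.2, and 94.5 CPM against 45.0, 55.7, and 82.1 and was not called (0.38, SE 0.17, edgeR adjusted p = 0.502). Angiotensinogen and renin were not analysed here.

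Of 18 proliferation genes tested, 5 were lower in positive cells (Birc5, Top2a, Cenpf, Ccna2, and Mki67), against 0.919% of all genes tested. None was higher, against 0.539%, and 13 were not called, with 4 of all 18 having a log2 fold change above 0. The median of the 18 was -0.85, and their summed level was higher in the positive cells in 1 of the 3 plates. Top2a, the topoisomerase of replicating cells, measured 56.7, 162, and 159 CPM in positive and 229, 165, and 526 CPM in negative cells (-1.21, SE 0.23, edgeR adjusted p = 0.00759), so that plate 2 barely differed. Mki67 measured 3.04, 22.2, and 17.1 CPM against 37.4, 44.8, and 139 (-2.30, SE 0.33, edgeR adjusted p = 0.000592). Tacc3, Tpx2, and Cenpa, which act on the mitotic spindle and the centromere, were among the 12 leading lower genes, at -1.52, -1.47, and -1.22. With every cell thinned, 5.05%, 8.91%, and 9.78% of the positive and 11.2%, 13.3%, and 17.4% of the negative cells had at least 3 UMIs of 8 division genes (exact two-sided permutation p = 0.25). With all UMIs these shares were 25.8% ± 4.61 and 26.8% ± 5.88 (SD, n = 3), and plate 2 had the opposite direction. When these cells were left out of both classes, 58 genes were called and 51 of them were among the 138. Dcn, Ogn, Gdf10, Scx, Tnmd, Kera, and Fmod were still called, and Tpx2 (-0.23), Cenpa (-0.47), and Top2a (0.16) were not. Top2a is 1 of the 8 division genes by which these cells were left out, so its value there is no independent result.

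Srgn, a proteoglycan of endothelial and blood cells, had the largest decrease of the called genes with at least 50 CPM in all 3 negative sums, with 14.2, 46.7, and 0 CPM in positive and 216, 175, and 63.4 CPM in negative cells (-2.95, SE 0.31, edgeR adjusted p = 2.16e-05). It sat in few cells, since 1 of 292 positive cells and 16 of 633 negative cells had 3 or more Srgn UMIs. The laminin gene Lama1 was lower as well (-1.85, SE 0.26). When the cells rich in Srgn or in the pluripotency genes Tdgf1, Utf1, and Sox2 (5 positive and 20 negative cells) were left out, a comparison added after the data were seen, 237 genes were called, and 128 of the 138 were among them. Then Srgn (-0.85), Lama1 (0.17), Col4a1 (-0.22), and Col4a2 (-0.26) were no longer called.

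Fibroblast markers were examined to check the name fibroblast-like. Of 15 tested fibroblast markers, 7 were higher in positive cells (Cd34, Dcn, Ogn, Col14a1, Col3a1, Lum, and Osr1), none was lower, and the median was 0.31. The shares over all genes tested were 0.539% higher and 0.919% lower. However, Dcn and Ogn had been named for these cells from these data, so their place in the list is no independent evidence. Cd34, a surface protein of fibroblast progenitors and endothelial cells, measured 28.3, 28.9, and 47.3 CPM against 9.76, 8.62, and 7.93 (1.95, SE 0.33, edgeR adjusted p = 0.00258). Pdgfra, a receptor of mesenchymal cells, measured 95.2, 92.3, and 180 CPM against 92.7, 101, and 156 and was not called (0.05, SE 0.14). Markers of the universal fibroblasts of adult tissue were near 0 in both classes: Clec3b had no UMI, Pi16 had 2 UMIs in either class, Ly6a had 10 and 12, and Dpt had 14 and 35. Dcn was at 2003 CPM or more in the negative cells as well, so it differed in degree only. Cd34 was scarce in both classes, with 90 UMIs in all positive and 47 in all negative cells. The cells are named here by the rule.

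Of 32 tested markers of cell types other than fibroblasts and tenocytes, 4 (12.5%) were called, against 1.46% of all genes tested. None of the 12 smooth muscle markers was called, with a median of -0.32. Acta2 measured 2700, 1447, and 1967 CPM in positive and 2165, 2035, and 3287 CPM in negative cells, higher in plate 1 and lower in plates 2 and 3 (-0.30, SE 0.12, edgeR adjusted p = 0.3998). Of 3 endothelial markers tested Kdr was higher (0.89, SE 0.22), while Cdh5 was at 0, and the summed markers ranged from 66.8 to 168 CPM in positive and from 50.4 to 126 CPM in negative cells. Of 2 adipocyte markers Fabp4 was lower (-1.44, SE 0.28), of 2 chondrocyte markers Sox9 was lower, and of 4 epithelial markers Krt18 was lower (-1.75, SE 0.39). Adipoq, Plin1, and the cartilage genes Matn1 and Col9a1 were at 0. No call fell on the 4 pericyte, 1 mesothelial, 2 neural, 3 pluripotent, or 4 sex-linked genes tested. None of the skeletal muscle and macrophage markers was abundant enough to be tested. The summed skeletal muscle markers were nevertheless lower in the positive cells of every plate, by little in plate 2. They ranged from 4.05 to 7.88 CPM in positive and from 5.74 to 124 CPM in negative cells. Acta1 had 1 UMI in all positive and 83 in all negative cells, Ttn 7 and 86, and Myf5 3 and 9. The pluripotent markers summed to at most 338 CPM in positive and 203 CPM in negative cells.

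**Figure D3:**
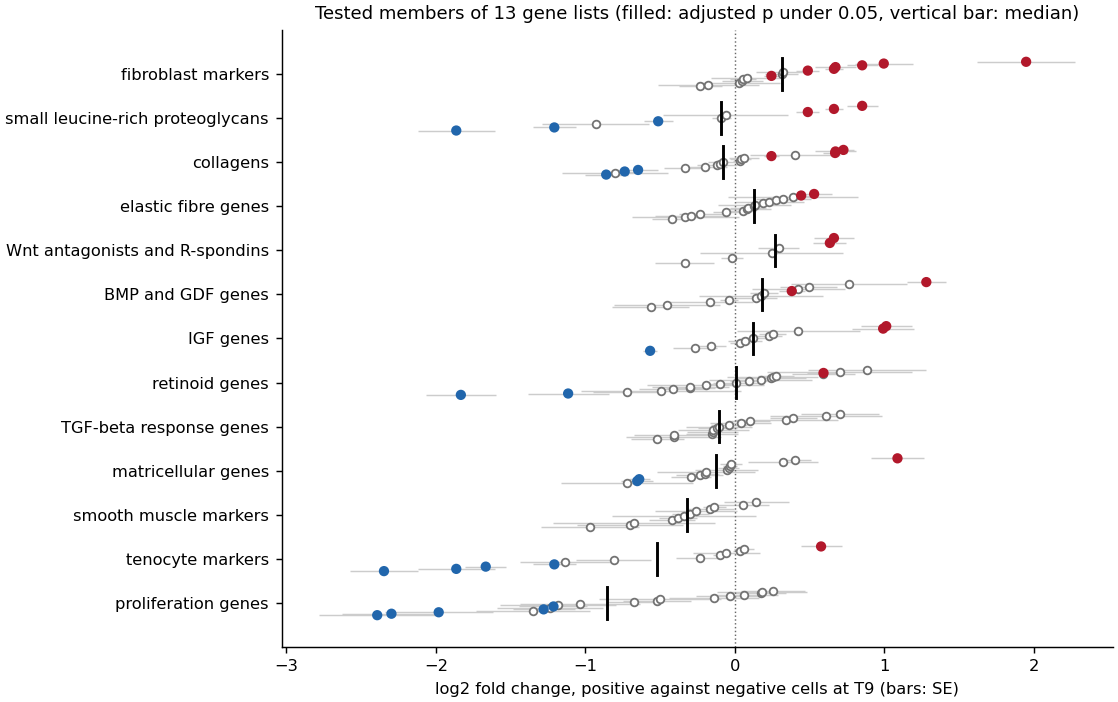
Log2 fold change of positive against negative cells at T9 (horizontal axis, error bars SE) for each tested member of the gene lists named at the left. Filled points were called with edgeR (red higher, blue lower), open points were not, and the black bars are medians, which range from -0.85 for proliferation genes to 0.31 for fibroblast markers.

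The cells just inside and just outside the rule can be set side by side, as a description with no test. The 186 cells with 1 UMI had 370 CPM of Ogn, 2236 CPM of Dcn, and 154 CPM of Scx, and the 82 cells with 2 UMIs had 591, 3074, and 102 CPM. The 633 cells with no UMI had 409, 2224, and 218 CPM, so the cells with 1 UMI were near the negative cells in Ogn and Dcn. The levels did not change evenly with more UMIs: in the 47 cells with 3 UMIs Dcn was at 2451 CPM and Osr1 at 58.9 CPM, near the 59.6 CPM of the negative cells. In the 81 cells with 8 or more UMIs the level was 958 CPM for Ogn, 4177 CPM for Dcn, 200 CPM for Esr1, and 192 CPM for Osr1. Scx fell to 36.6 CPM, Fmod from 150 to 37.9 CPM, Tnmd from 152 to 11.8 CPM, and Postn from 1681 to 676 CPM between no and 8 or more UMIs. These values pool the plates, and single plates scattered widely within the smaller bins.

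**Figure D4:**
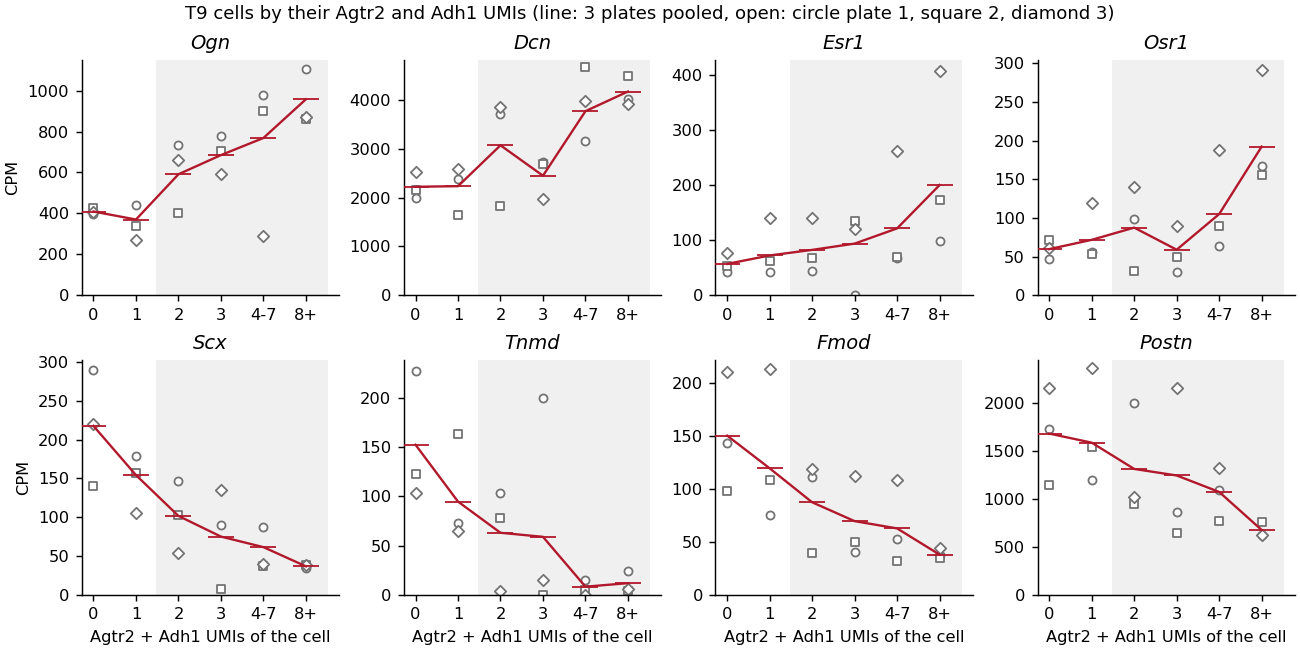
Levels of 8 genes in CPM at T9 in cells grouped by their summed UMIs of Agtr2 and Adh1 (horizontal axis, grey field the positive cells), with the 3 plates pooled (red line) and singly (open points). Ogn, Dcn, Esr1, and Osr1 are highest and Scx, Fmod, and Postn lowest at 8 or more UMIs in the pooled values.

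Cells chosen by Adh1 alone and by Agtr2 alone were then compared with each other. With at least 2 UMIs of the one gene and none of the other, there were 104 Adh1-only and 90 Agtr2-only cells, with 28 to 38 of either kind per plate. Of 4138 genes tested 1 (0.0242%) was called. This was Crispld2, a secreted protein with an LCCL domain, which measured 199, 165, and 586 CPM in Adh1-only and 89.7, 61.9, and 203 CPM in Agtr2-only cells of plates 1, 2, and 3 (1.38, SE 0.23, edgeR adjusted p = 0.0185), higher in each plate. It was not called without plate 2, without plate 3, or with DESeq2. At an unadjusted p under 0.05 there were 232 genes, and sums of this size limit what can be called. Dcn differed by 0.35 (SE 0.14, edgeR adjusted p = 0.722), Ogn by 0.19 (SE 0.16, edgeR adjusted p = 0.971), and Scx by -0.92 (SE 0.48, edgeR adjusted p = 0.895).

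Cells chosen by either gene alone were also set against the negative cells. With 2 or more Agtr2 UMIs as the rule 92 genes were called and with 2 or more Adh1 UMIs 245, of which 69 and 120 were among the 138, and all 136 of the 138 that could be tested kept their direction in either. The log2 fold change was 0.63 and 0.81 for Dcn, 1.12 and 1.37 for Gdf10, and -1.49 and -2.15 for Scx, respectively, all called. With Agtr2 alone 22 of the 57 named genes that were called lost the call, among them Esr1 (0.85), Pgr (0.69), Osr1 (0.91), Igfbp7 (0.73), 2610528A11Rik (0.92), and Lum (0.33), which were called with Adh1 alone. These comparisons share the negative cells and the cells with 2 or more UMIs of both genes.

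The plates of T6 were not used by the rule and held 126 positive cells (41, 34, and 51 per plate) and 817 negative cells. Of 10281 genes tested there 6 (0.0584%) were called. Dcn, Col6a1, Col6a2, and Igfbp7 (0.0389% of the genes) were higher and Srgn and Lama1 (0.0195%) lower in T6 positive cells, in the direction of T9. Dcn measured 1565, 1355, and 1654 CPM in positive and 1087, 800.1, and 1052 CPM in negative cells of T6 (0.65, SE 0.07, edgeR adjusted p = 0.000716). Igfbp7 measured 40.3, 25.8, and 30.8 CPM against 5.91, 3.796, and 6.61 (2.55, SE 0.43, edgeR adjusted p = 0.0419). Neither gene overlapped between the classes. Without plate 1, 2, or 3 of T6 there were 45, 23, and 25 calls, and DESeq2 called 10, of which 3 were among the 6.

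Of the 51 genes higher in T9 positive cells 50 were tested at T6, and 45 of them (90.0%) were higher there too, 27 at an unadjusted p under 0.05, while 48.4% of all genes tested at T6 were higher. Of the 87 lower genes 81 were tested and 51 (63.0%) were lower, 19 at an unadjusted p under 0.05, while 51.6% of all genes were lower. The median log2 fold change at T6 was 0.46 for the former and -0.13 for the latter. At T6 the log2 fold change was 0.23 for Top2a and 0.28 for Birc5, whereas Kera (-1.57, SE 0.38) and Cyp26a1 (-1.25, SE 0.32) were lower at unadjusted p = 0.000761 and 0.00121 of edgeR without passing the adjustment. At T3 there were 27 positive cells, with 7 and 9 in plates 1 and 2, and at T0 there were 10, so no comparison was made.

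The difference between T9 and T6 was tested as an interaction in 1 fit of the 12 sums. Of 10697 genes 2 (0.0187%) were called, Scx and C1qtnf3. Scx measured 796, 368, and 394 CPM in positive and 600, 606, and 482 CPM in negative cells of T6, higher in plate 1 and lower in plates 2 and 3, with a log2 fold change of -0.15 (SE 0.15). Its log2 fold change at T9 minus that at T6 was -1.52 (SE 0.23, edgeR adjusted p = 0.00708). C1qtnf3, a secreted protein of the C1q and TNF family, measured 165, 155, and 123 CPM against 132, 115, and 118 at T6 (0.27, SE 0.15) and 231, 147, and 116 CPM against 467, 241, and 322 at T9 (-1.05, SE 0.12). The difference between the time points was -1.32 (SE 0.20, edgeR adjusted p = 0.00708). Both calls were lost without plate 1 or plate 3 of T9 and after thinning every cell, where the difference was -0.52 for Scx and -0.75 for C1qtnf3, and were kept with DESeq2. After thinning, the class rule was applied to the thinned counts, so the classes did not hold the same cells.

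**Figure D5:**
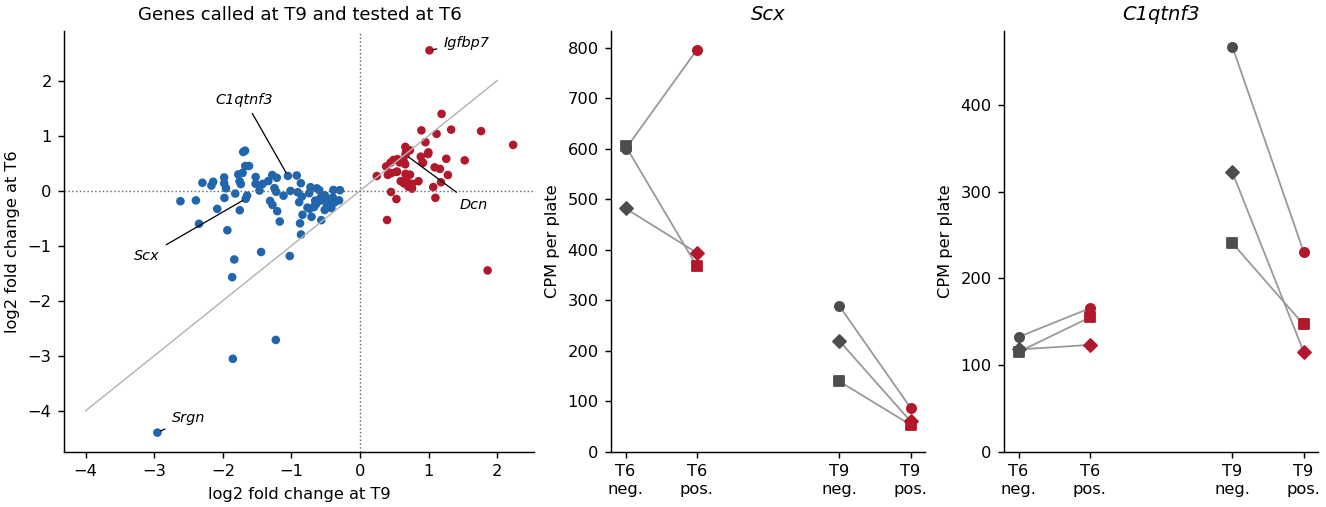
Log2 fold changes of positive against negative cells at T9 and T6 for the genes called at T9 and tested at T6 (left, red higher and blue lower at T9, with the line of equal values), and the CPM of Scx (middle) and C1qtnf3 (right) in the negative (grey) and positive (red) cells of each plate (circle plate 1, square plate 2, diamond plate 3). Scx and C1qtnf3 fall in all 3 plates of T9 and not in all plates of T6.

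The levels of the leading genes over all cells of a plate took different courses. In the order T0, T3, T6, and T9 the level of Ogn was 1.41 ± 0.737, 61.3 ± 4.71, 128 ± 19.3, and 493 ± 58.4 CPM (SD, n = 3). The level of Dcn was 5.68 ± 2.31, 236 ± 29.3, 1059 ± 146, and 2581 ± 195 CPM. In these genes the plates of successive time points did not overlap. The level of Scx was 9.62 ± 2.42, 733 ± 35.7, 562 ± 78.4, and 163 ± 46.3 CPM, highest at T3. Gdf10 was at 31.5 ± 7.52, 124 ± 34.9, and 107 ± 33.1 CPM at T3, T6, and T9, and Esr1 at 20.4 ± 5.50, 82.4 ± 22.6, and 81.6 ± 40.02, with T6 and T9 overlapping. Srgn was at 0.125 ± 0.217 CPM at T3 and at 96.4 ± 45.0 at T6.

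Achilles tendons of 2-week-old mice, 2 wild type (Scx_Wt) and 2 homozygous for the Scx knockout (Scx_KO), were measured by bulk RNA-seq with 11188270 to 12398560 counted reads per sample. In bulk tissue fewer cells of a type and less RNA per cell cannot be told apart, and with 2 samples a group the values are given with no test. Agtr2 measured 73.4 and 39.4 CPM in Scx_Wt and 45.7 and 58.9 CPM in Scx_KO tendons, which overlapped. Adh1 measured 40.1 and 15.4 CPM against 12.1 and 7.47. Scx itself measured 103 and 81.3 CPM against 23.1 and 25.1. Of the genes that were lower in T9 positive cells, Tnmd measured 1460 and 1257 CPM against 268 and 264, Kera 596 and 613 against 231 and 223, Fmod 5544 and 4925 against 1383 and 1358, and Postn 1129 and 665 against 2246 and 2976. Tnmd, Kera, and Fmod were thus lower and Postn higher in both knockout tendons. Of the genes that were higher in positive cells, Dcn measured 3320 and 3076 CPM against 3108 and 3407, which overlapped. Lum measured 131 and 72.2 CPM against 248 and 208, and Col14a1 373 and 227 against 689.5 and 906. Ogn measured 310 and 245 CPM against 160 and 194, and Igfbp7 658 and 570 against 538 and 454. Thus Lum and Col14a1 were higher and Ogn and Igfbp7 lower in both knockout tendons, with no common direction.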

How the data were processed

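Single cells of 12 plates (3 at each of T0, T3, T6, and T9) were profiled by CEL-Seq2, and 4 Achilles tendons by bulk RNA-seq. Per the methods of the study and the submitters' processing notes, the authors trimmed the single-cell reads, aligned them to GRCm38 with HISAT2 2.2.1, and counted UMIs per gene with featureCounts and UMI-tools 1.0.1. For the tendon reads the notes name HISAT2 2.0.4 and featureCounts 1.5.0 with the same build. The deposited single-cell values are UMI counts per gene and well, and the deposited bulk values are read counts, neither normalized. The annotation used for counting is not given in the sources used here, and gene names and positions were taken from GENCODE M21 of the same build, which named 29538 of 29629 genes. A further 3 entries outside Ensembl, with 0.0642% of the UMIs, were left out. Of 4608 wells, 4301 passed the minimum of 200 genes and 3000 UMIs (1111 of 1147 cells with 200 genes at T9). Wells were sorted singly, and no doublet caller was run. Intervals of shares cover counting error only.

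The UMI sums per plate and class were fitted with edgeR 4.0.16 (R 4.3.3; TMM, filterByExpr, quasi-likelihood test, Benjamini-Hochberg adjustment at 0.05) with the plate as a block, since both classes of a plate share its sort, pool, and library. The same steps were tested on simulated data. Log2 fold changes are those of edgeR, and levels are CPM with no pseudocount. Comparisons were positive against negative cells at T9 and at T6, the interaction of class and time point, Adh1-only against Agtr2-only cells, and shares of cells thinned to 3000 UMIs (exact sign-flip permutation of the 3 plate differences). At least 10 cells of each class in each plate were required. Alternatives were DESeq2 1.42.0, no filter on low counts, the size factors of DESeq2 within edgeR, no block, no minimum of UMIs, at least 4 UMIs for a positive cell, either gene alone, negative cells matched for depth, thinned cells, T6 and T9 in 1 fit, no dividing cells, and leaving out each plate. The named genes were the members of 27 gene lists, the called genes with at least 50 CPM in all 3 sums of the higher class and the same direction in all 3 plates that ranked in the top 12 for change either way, up to 5 in each direction for the interaction and for the comparison of Adh1-only and Agtr2-only cells, and Ogn and Dcn. The cells, lists, and tests were chosen with earlier results of these data known. Single results on some list members are not reported here.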

Additional observations from a re-analysis of the deposited data

Results flagged for a closer look

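The difference between positive and negative cells changed from T6 to T9 in 2 genes by the interaction test of edgeR. For Scx the log2 fold change was lower by -1.52 at T9 than at T6, with the positive cells below the negative cells in 3 of 3 plates of T9 and in 2 of 3 plates of T6. For C1qtnf3 it was lower by -1.32, with the positive cells below in 3 of 3 plates of T9 and above in 3 of 3 plates of T6. Groups had 3 plates each, so no test for single outlying samples was run.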

How the results depend on the processing

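The number of genes called at T9 (138, of which 51 were higher and 87 lower) moved most with the plates and the model. Without replicate 1, 2, or 3 it ranged from 0 to 287 (0 to 95 higher and 0 to 192 lower). Without the replicate block, that is with the pairing of the classes by plate ignored, 0 genes were called at T9, with 282 at an unadjusted p under 0.05, and 1 at T6, 0 for the interaction, and 0 between Adh1-only and Agtr2-only cells. DESeq2 called 45 at T9 (21 higher and 24 lower), 10 at T6, and 0 between Adh1-only and Agtr2-only cells. With at least 4 UMIs 256 were called (110 and 146), with Adh1 alone 245 (106 and 139), with Agtr2 alone 92 (20 and 72), with T6 and T9 in 1 fit 90 (40 and 50), with depth-matched negative cells 97 (43 and 54), with every cell thinned 69 (31 and 38), and with no filter on low counts 246 (65 and 181). Without dividing cells 58 were called (26 and 32) and without Srgn-rich or pluripotent cells 237 (96 and 141). The cause of these changes was not tested, other than that thinning, matching, and leaving out cells keep fewer UMIs. Thinning also changed the classes, since the rule was applied again to the thinned counts. The T9 plates 1, 2, and 3 then had 49, 57, and 52 positive cells in place of 99, 101, and 92. Their negative cells were 267, 268, and 261 in place of 196, 218, and 219. Every gene of the 138 that could be fitted kept its direction in all these settings, with the exception of Lama1 without Srgn-rich or pluripotent cells (0.17) and Top2a without dividing cells (0.16). Top2a is itself among the genes that chose the dividing cells. At T6 the calls ranged from 23 to 45 without replicate 1, 2, or 3. For the interaction they ranged from 0 to 28 without a plate, with 1 after thinning, and between Adh1-only and Agtr2-only cells from 0 to 1, with 0 after thinning. The difference in the share of Acta2 cells turned to 1.31 percentage points with all UMIs, while the mean differences of Scx, Tnmd, Sox9, Ogn, Dcn, and dividing cells kept their direction. Over 57 named genes the call was kept in 676 and lost in 227 combinations of gene and setting. Genes under 50 CPM rest on few UMIs per sum, and a missing call for them says little.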

Other observations

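Some called genes of T9 fell outside the lists and the rule for named genes, and were chosen after their values were seen. They are single genes and no tested group. Actc1, the cardiac actin, measured 10.1, 0, and 19.7 CPM in the positive cells of plates 1, 2, and 3 and 136, 0, and 129 CPM in the negative cells (log2 fold change -3.17, SE 0.29, edgeR adjusted p = 6e-06). The troponins Tnnc1 (-1.98, SE 0.45) and Tnnt2 (-1.92, SE 0.44) and the transcription factor Gata4 (-2.69, SE 0.56) were lower as well. Plate 2 held no Actc1 in either class and 0.574 CPM of Tnnt2 in its negative cells, so that the differences of Actc1 and Tnnt2 rest on plates 1 and 3.

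Among signaling receptors outside the lists, Ramp3, which sets the ligand choice of the calcitonin receptor-like receptor, measured 47.6, 38.9, and 112 CPM in positive and 22.8, 18.4, and 23.2 CPM in negative cells (1.53, SE 0.26, edgeR adjusted p = 0.0027). Ednra, the endothelin receptor A, measured 166, 123, and 173 CPM against 119, 80.4, and 122 (0.54, SE 0.13, edgeR adjusted p = 0.0335). The glucose transporters Slc2a1 (-0.58, SE 0.13) and Slc2a3 (-0.57, SE 0.13) and Egln1, an oxygen-sensing prolyl hydroxylase (-0.59, SE 0.14), were lower in all 3 plates.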
